A study of Mus musculus with 16 samples.

Results

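The transporters that move bile acids and other organic anions through mouse hepatocytes were followed as a set of 10 genes, out of 54838 genes in the deposited count table. They were picked by name as hepatocyte uptake and efflux carriers, with earlier results of these data known, and were matched through the table's Ensembl identifiers. The set held 4 carriers of uptake from blood (Slc10a1, Slco1a1, Slco1a4 and Slco1b2), 3 exporters into bile (Abcb11, Abcb4 and Abcc2) and 3 exporters back into blood (Abcc3, Abcc4 and Slc51b). All 10 were found, and all 10 passed the filter on low counts.

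The study sequenced RNA of tumors and of the peri-tumor liver beside them in 8 mice, each giving 1 library of each tissue. All mice carried HrasG12V, an activated form of the Ras oncogene. In the TCM groups the mice were given a decoction of traditional Chinese medicine (TCM), for which the labels give neither composition nor dose, and the control mice were not. The groups were TCM tumor, control tumor, TCM peri-tumor and control peri-tumor, with 4 libraries each, all labelled 3 months without saying whether that is an age or a length of treatment. The protocols name Ras transgenic mice and mice induced with DEN, a liver carcinogen, in 1 phrase, and do not say whether these animals received DEN. The promoter that drives the transgene, the strain and the sex are not stated there either.

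Bile acids circulate between gut and liver. Hepatocytes draw them from portal blood through the basolateral membrane, with the sodium-dependent carrier Slc10a1 (NTCP) and the sodium-independent Slco carriers (OATPs), which also take up bilirubin, hormones and drugs. On the other side of the cell, pumps of the ATP-binding cassette family push bile salts, phospholipid and conjugated anions into the canaliculus, the first space of the bile duct system. Basolateral exporters such as Abcc3, Abcc4 and the Slc51a and Slc51b pair return anions to blood and are known as an overflow route in cholestasis.

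RefSeq gives windows from 250 bases before to 50 bases after the transcript start for 9 of the 10 genes (11 windows, build GRCm38.p6); Abcc3 has none in the table used. The 4 windows printed here belong to 2 uptake carriers and 2 canalicular pumps, each called (adjusted p below 0.05 in edgeR) between tissues in control mice. Of these genes only the pumps Abcb11 and Abcc2 were also called between treatments. Abcb4 and Abcc4 were called between treatments too, and their windows are not printed. Each window is written 5′ to 3′ on the gene's own strand. Capitals mark the nuclear receptor hexamer AGGTCA, which reads TGACCT on the other strand, and the TATA box TATAAA, whose other strand reads TTTATA.
Slco1b2 (chr6:141629268-141629567, plus strand): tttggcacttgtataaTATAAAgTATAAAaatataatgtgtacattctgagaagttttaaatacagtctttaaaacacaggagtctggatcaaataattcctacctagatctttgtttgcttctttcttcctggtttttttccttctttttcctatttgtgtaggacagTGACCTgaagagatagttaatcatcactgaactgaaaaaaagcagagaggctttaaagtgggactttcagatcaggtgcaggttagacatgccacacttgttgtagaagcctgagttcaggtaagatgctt
Slco1a1 (chr6:141946913-141947212, minus strand): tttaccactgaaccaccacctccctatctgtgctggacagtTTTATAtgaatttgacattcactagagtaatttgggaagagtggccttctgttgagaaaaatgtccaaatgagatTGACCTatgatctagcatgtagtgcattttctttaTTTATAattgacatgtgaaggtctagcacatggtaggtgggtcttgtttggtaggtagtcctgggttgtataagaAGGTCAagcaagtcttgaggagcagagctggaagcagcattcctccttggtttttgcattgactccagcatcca
Abcb11 (chr2:69342567-69342866, minus strand): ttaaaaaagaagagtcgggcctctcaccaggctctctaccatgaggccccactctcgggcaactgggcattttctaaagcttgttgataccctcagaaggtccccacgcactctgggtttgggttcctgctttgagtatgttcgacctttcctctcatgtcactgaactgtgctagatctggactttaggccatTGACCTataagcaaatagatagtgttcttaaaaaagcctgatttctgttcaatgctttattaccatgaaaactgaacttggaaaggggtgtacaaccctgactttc
Abcc2 (chr19:43782058-43782357, plus strand): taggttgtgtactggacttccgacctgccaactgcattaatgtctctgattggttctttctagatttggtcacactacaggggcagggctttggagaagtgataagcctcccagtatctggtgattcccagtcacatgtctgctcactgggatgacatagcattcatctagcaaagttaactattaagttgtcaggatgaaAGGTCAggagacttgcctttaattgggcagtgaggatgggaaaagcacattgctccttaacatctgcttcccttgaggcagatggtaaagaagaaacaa
In Slco1b2 a hexamer lay 81 bases before the start, and 2 TATA boxes lay 234 and 227 bases before it. Slco1a1 held hexamers 134 and 24 bases before the start. The hexamer of Abcb11 lay 56 bases and that of Abcc2 49 bases before the start. Of the 9 genes with a window, 6 held AGGTCA on either strand in a window, and of their 11 windows 6 did, against 16.3% of all 32851 windows in the table. All the printed windows hold it, while those of Slco1a4, Abcb4 and Abcc4 do not. TATAAA occurred in 13.6% of all windows, and these motifs do not overlap each other. The inverted pair AGGTCANTGACCT, the type bound by the bile acid receptor FXR, was in none of the transporter windows and in 0.00913% of all windows. At 3 of 32851 windows the exact pair is too rare for its absence from 11 windows to tell anything. Copies with a differing base were not searched for. A match describes letters and is not a site of binding.

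Libraries held 13947483 to 16194224 counts assigned to genes. The first principal component (54.6% of the variance) separated tumor from peri-tumor libraries. On the second (12.7%), both libraries of control mouse 4 stood between the other control libraries and the TCM libraries, and where leaving out its libraries changed a transporter's call or moved a called value by over 1.5 times, the value without them is given. Across the 16 libraries, counts of Xist were 0 to 2 and counts of the Y-linked Ddx3y 587 to 1242, the pattern of male animals in every library. The tissue was rich in hepatocyte transcripts: 16 hepatocyte markers summed to 154099 to 235344 CPM in TCM tumor, 151493 to 206522 in control tumor, 137405 to 198169 in TCM peri-tumor and 104563 to 160016 in control peri-tumor libraries. A large part of each sum was Alb alone, at 83766 to 137563, 83022 to 114212, 74292 to 117698 and 49889 to 73940 CPM in the same order of groups. CPM is the count scaled to a common library total with TMM factors.

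Tumors carried far less transcript of the uptake carriers than the liver beside them, in both treatments, while the exporters split. In TCM mice 7 of the 10 transporters fell in tumor against peri-tumor tissue and 0 rose, where 32.9% of all 14865 tested genes were called (15.6% fell and 17.3% rose). In control mice 5 fell and 2 rose, where 43.2% of all tested genes were called (21.2% fell and 22.0% rose). A gene was called at an adjusted p below 0.05 in edgeR's quasi-likelihood test. The median log2 fold change of the 10 genes was -0.94 in TCM mice, beside 0.0043 for all tested genes, and -0.92 in control mice, beside 0.001. Libraries of the tissues did not overlap for 7 transporters in TCM mice (33.9% of all genes) and for 6 in control mice (38.9% of all genes). In bulk tissue, fewer cells of a type and less RNA per cell cannot be told apart.

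**Figure D1:**
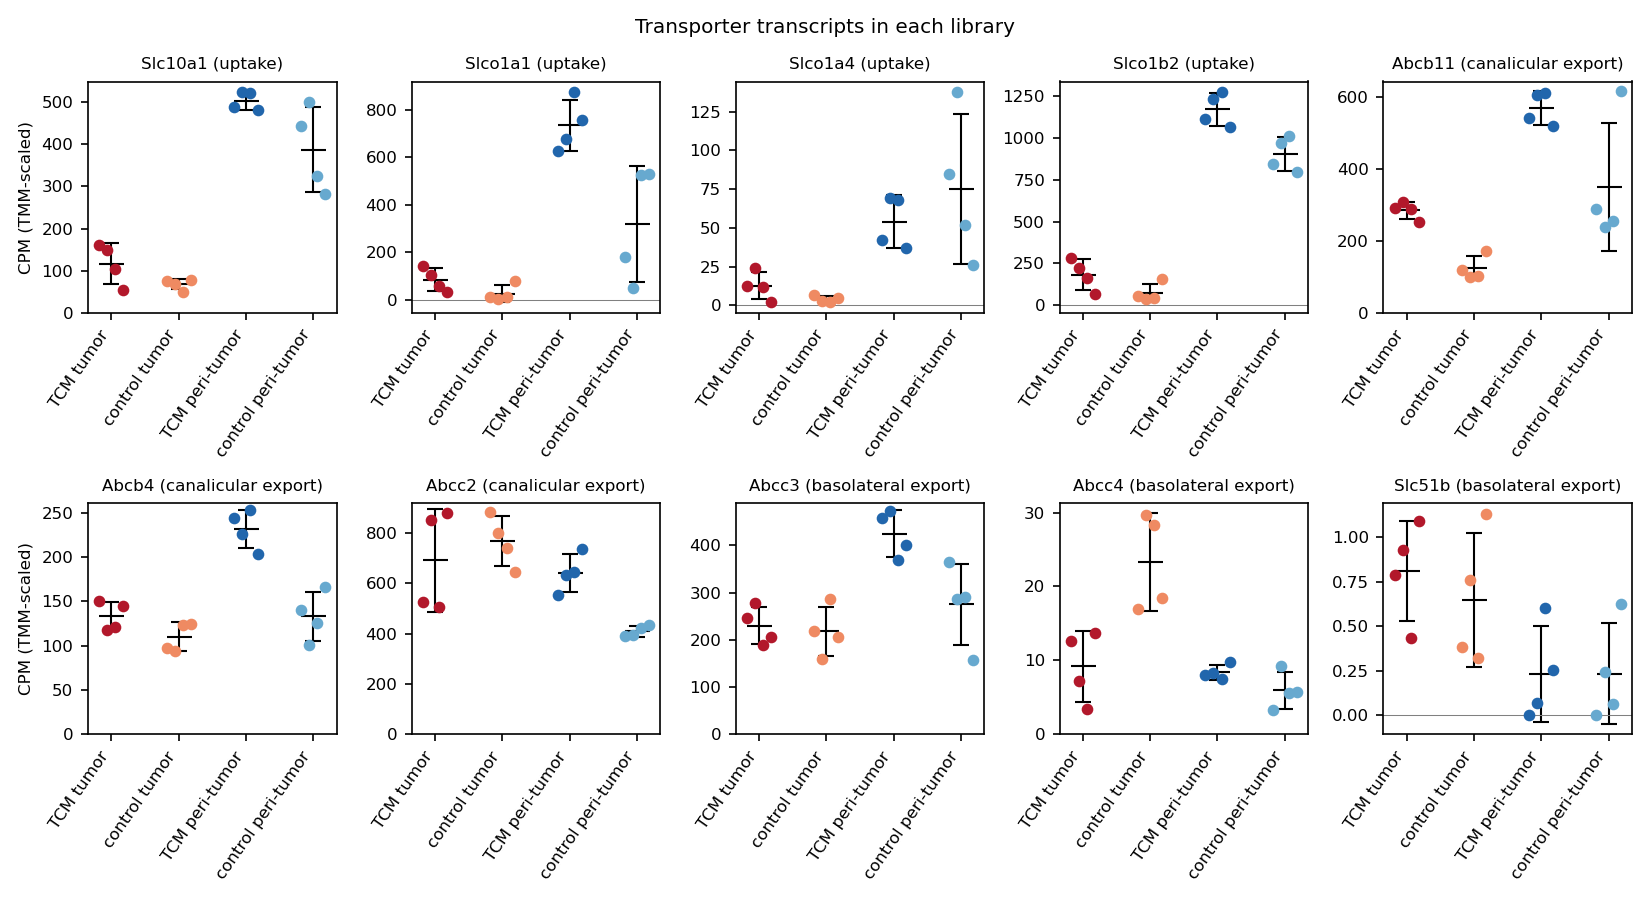
Each panel shows 1 transporter, with CPM (TMM-scaled, linear axis) per library in TCM tumor, control tumor, TCM peri-tumor and control peri-tumor tissue; points are mice, the long bar is the mean and whiskers are 1 SD (n = 4). The uptake carriers sit low in tumors, Abcc2 does not, and Abcc4 is highest in control tumors.

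Slc10a1, the main sodium-dependent bile acid carrier, lies on the minus strand of chromosome 12 (80953183 to 80968705, GRCm38). It had 160.0, 148, 104 and 54.4 CPM in TCM tumors, against 489, 523, 521 and 481 CPM in TCM peri-tumor tissue. In control mice it had 75.3, 69.4, 49.9 and 77.02 CPM in tumors, against 442, 501, 325 and 282 CPM in peri-tumor tissue. No tumor library reached the lowest peri-tumor library in either treatment, and the tumor was lower in 4 of 4 mice of each. The log2 fold change was -2.11 ± 0.27 (SE; edgeR adjusted p = 3.7e-05) in TCM mice. It was -2.51 ± 0.28 (SE; edgeR adjusted p = 4.24e-06) in control mice.

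Slco1b2, the liver-specific OATP and the most abundant of the 10 transcripts per length in peri-tumor tissue, lies on the plus strand of chromosome 6 (141629518 to 141686646). It had 282, 222, 161 and 66.4 CPM in TCM tumors, against 1116, 1232, 1277 and 1069 CPM in TCM peri-tumor tissue. Control tumors held 57.8, 36.4, 43.97 and 156 CPM, against 846, 971, 1013 and 798 CPM in control peri-tumor tissue. The groups did not overlap, and the tumor of control mouse 4 stood above the other control tumors. Slco1b2 fell, by a log2 fold change of -2.68 ± 0.44 (SE; edgeR adjusted p = 0.000261) in TCM mice. The log2 fold change in control mice was -3.62 ± 0.46 (SE; edgeR adjusted p = 1.48e-05), and -4.31 without control tumor 4 or -4.39 without both libraries of that mouse.

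Slco1a1 and Slco1a4 are neighbouring carriers on the minus strand of chromosome 6 (141907282 to 141946962 and 141805440 to 141856199). In mouse liver Slco1a1 is known as male-predominant and Slco1a4 as female-predominant. Slco1a1 had 143, 102.3, 59.5 and 32.6 CPM in TCM tumors, against 628, 679, 876 and 756 CPM in TCM peri-tumor tissue. In control mice it had 10.1, 0.970, 9.90 and 77.4 CPM in tumors, against 179, 47.7, 526 and 529 CPM in peri-tumor tissue. The control libraries spanned a wide range in both tissues and their groups overlapped, since the tumor of mouse 4 lay above the peri-tumor library of mouse 2. Within each mouse the tumor was lower, in 4 of 4 TCM mice and 4 of 4 control mice. The fold change was -3.12 ± 0.93 (SE; edgeR adjusted p = 0.0168) on the log2 scale in TCM mice, a call that was lost without TCM tumor 4 (-2.84, edgeR adjusted p = 0.0517). It was -3.70 ± 0.96 (SE; edgeR adjusted p = 0.00545) in control mice, -4.44 with the mouse as a block, -5.52 without control tumor 4 and -5.18 without both libraries of control mouse 4.

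Slco1a4 had the lowest group means of the 4 uptake carriers, although in both libraries of control mouse 2 it lay above Slco1a1. It had 12.3, 24.3, 12.05 and 2.46 CPM in TCM tumors, against 42.2, 69.1, 68.1 and 36.8 CPM in TCM peri-tumor tissue. Control tumors held 6.40, 2.70, 2.12 and 4.90 CPM, against 84.9, 138, 51.9 and 26.2 CPM in control peri-tumor tissue. No tumor library overlapped the peri-tumor libraries of its treatment, and the highest level of all was in control peri-tumor 2. The log2 fold change was -2.08 ± 0.56 (SE; edgeR adjusted p = 0.00905) in TCM mice. It was -4.21 ± 0.62 (SE; edgeR adjusted p = 5.91e-05) in control mice. Of the 50-base words of the 2 genes, 2.73% (Slco1a4) and 2.26% (Slco1a1) also occur in any other gene. The gene sharing most was Slco1a5 for both, which had at most 0.179 CPM in any library.

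Among the canalicular exporters, Abcb11 and Abcc2 went different ways. Abcb11, the bile salt export pump (BSEP), lies on the minus strand of chromosome 2 (69238282 to 69342616). It had 292, 308, 287 and 253 CPM in TCM tumors, against 541, 607, 613 and 519 CPM in TCM peri-tumor tissue. In control mice it had 118, 100.2, 104 and 172 CPM in tumors, against 288, 239, 255 and 617 CPM in peri-tumor tissue. In both treatments every tumor library lay below every peri-tumor library, and both libraries of control mouse 4 were the highest of their group. Abcb11 fell in TCM mice, with a log2 fold change of -0.999 ± 0.26 (SE; edgeR adjusted p = 0.00677), and in control mice, with -1.50 ± 0.26 (SE; edgeR adjusted p = 0.000241). The value in control mice was -1.08 without control peri-tumor 4 and -1.32 without both libraries of that mouse, and both were called. An antisense transcript and a pseudogene on the opposite strand overlap its exons but had at most 2 counts in a library.

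Abcb4 is the flippase that brings phosphatidylcholine into bile, on the plus strand of chromosome 5 (8893717 to 8959231). It had 149.8, 117, 121 and 144 CPM in TCM tumors, against 243, 226, 252 and 204 CPM in TCM peri-tumor tissue. Control mice showed 97.8, 94.2, 123 and 125 CPM in tumors, against 139.9, 100.6, 125 and 166 CPM in peri-tumor tissue. The TCM tissues were apart and the control tissues overlapped. Abcb4 fell in TCM tumors, with a log2 fold change of -0.80 ± 0.15 (SE; edgeR adjusted p = 0.000781). In control mice the value was -0.27 ± 0.15 (SE; edgeR adjusted p = 0.152), and without control peri-tumor 2 it was called (edgeR adjusted p = 0.0329). Of its 50-base words 3.42% also occur in any other gene, and the related pump Abcb1a shared most.

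Abcc2 (MRP2) exports conjugated bilirubin and other conjugates into bile, from the plus strand of chromosome 19 (43782192 to 43840740). It had 524, 853, 507 and 881 CPM in TCM tumors, against 552, 634, 646 and 735 CPM in TCM peri-tumor tissue. In control mice it had 883, 802, 742 and 645 CPM in tumors, against 389, 394, 422 and 433 CPM in peri-tumor tissue. All 4 control tumors were above all control peri-tumor libraries, whereas TCM tumors lay on both sides of the TCM peri-tumor libraries. Abcc2 rose in control tumors, with a log2 fold change of 0.91 ± 0.18 (SE; edgeR adjusted p = 0.000701). In TCM mice the value was 0.11 ± 0.18 (SE; edgeR adjusted p = 0.687).

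The basolateral exporters also differed from each other. Abcc3 (MRP3), an exporter of glucuronides to blood, lies on the minus strand of chromosome 11 (94343295 to 94392997). It had 246, 278, 189.8 and 206 CPM in TCM tumors, against 458, 473, 369 and 400.2 CPM in TCM peri-tumor tissue. Control tumors had 219, 159, 286 and 207 CPM, against 364, 287, 291 and 157 CPM in control peri-tumor tissue. Only the TCM tissues were apart, and control peri-tumor 4 had the lowest value of all libraries. Abcc3 fell in TCM tumors, with a log2 fold change of -0.89 ± 0.22 (SE; edgeR adjusted p = 0.00604). In control mice it was -0.34 ± 0.22 (SE; edgeR adjusted p = 0.235), called without control peri-tumor 4 (-0.53, edgeR adjusted p = 0.0277).

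Abcc4 (MRP4), which exports bile acids together with glutathione as well as cyclic nucleotides, lies on the minus strand of chromosome 14 (118482692 to 118706219). It had 12.6, 7.20, 3.39 and 13.7 CPM in TCM tumors, against 7.999, 8.30, 7.48 and 9.79 CPM in TCM peri-tumor tissue. In control mice it had 16.9, 29.7, 28.3 and 18.4 CPM in tumors, against 3.31, 9.26, 5.53 and 5.65 CPM in peri-tumor tissue. Control tumors were the highest group and overlapped no other, while the TCM tissues overlapped. Abcc4 rose in control tumors, with a log2 fold change of 1.97 ± 0.37 (SE; edgeR adjusted p = 0.000445). In TCM mice it was 0.14 ± 0.36 (SE; edgeR adjusted p = 0.808), with 2 mice up and 2 down.

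Slc51b, the partner subunit of the Slc51a and Slc51b export pair, lies on the minus strand of chromosome 9 (65412714 to 65422955) and was close to the limit of these libraries. TCM tumors had 13, 15, 6 and 16 counts, against 0, 1, 8 and 4 counts in TCM peri-tumor tissue. Control tumors had 6, 11, 5 and 19 counts, against 0, 4, 1 and 9 counts in control peri-tumor tissue. A count of 0 allows up to 3 counts in a library. The log2 fold change was 1.82 ± 0.81 (SE; edgeR adjusted p = 0.0993) in TCM mice, called without TCM peri-tumor 3 (2.81, edgeR adjusted p = 0.0359). It was 1.48 ± 0.82 (SE; edgeR adjusted p = 0.157) in control mice, called without control peri-tumor 4 (2.56, edgeR adjusted p = 0.0363). Rasl12, on the opposite strand, overlaps Slc51b exons and had up to 9 counts in a library, and the labels do not say whether the counting used strand. Slc51a, the other subunit, had 8 to 12 counts per group over 4 libraries.

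**Figure D2:**
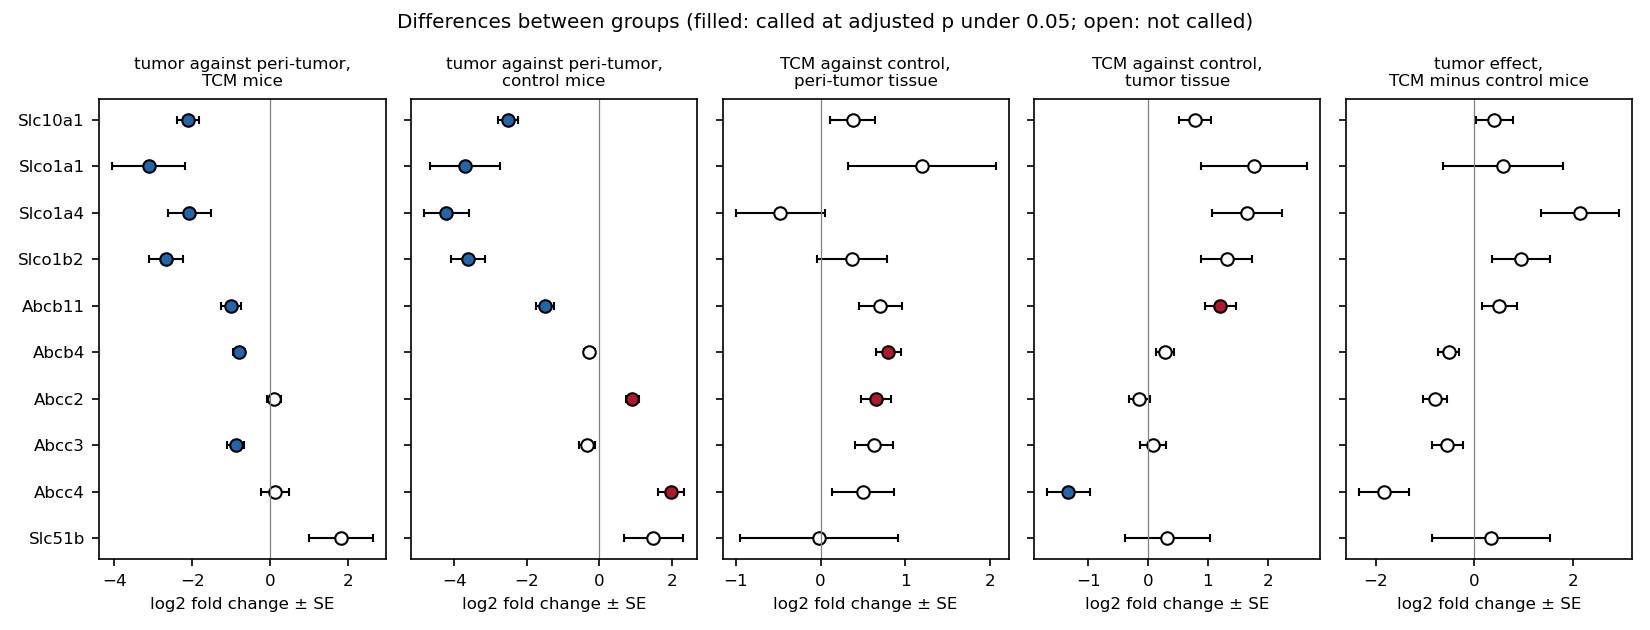
Log2 fold changes (x axis, own scale in each panel) with 1 SE for the 10 transporters in the 4 pairwise comparisons and the difference of the tumor effect; filled points are called at an adjusted p below 0.05 in edgeR. The 4 uptake carriers and Abcb11 lie left of 0 in both tumor panels, and no point is filled in the last panel.

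Per length, the order of the transporters changed between the tissues. FPKM, the authors' deposited values, scale counts by gene length and library total and so allow genes to be compared. TCM peri-tumor tissue was led by Slco1b2 at 182.6 ± 13.3 FPKM, ahead of Slc10a1 at 107 ± 7.35 FPKM (SD, n = 4), and those ranges did not overlap. Control peri-tumor tissue had the same leaders, Slco1b2 at 150.8 ± 22.2 FPKM and Slc10a1 at 88.2 ± 26.5 FPKM, also apart. In TCM tumors Abcc2 had the highest mean, 62.7 ± 18.9 FPKM, but its range overlapped that of Abcb11 at 41.5 ± 3.99 FPKM, and the next neighbours down to Slco1a1 overlapped as well. In control tumors Abcc2 led at 72.3 ± 6.85 FPKM, apart from Abcc3 at 31.7 ± 8.06 FPKM and all below it. Slco1b2 stood in the fourth place in TCM tumors and in the fifth in control tumors, where it overlapped its neighbours. The lowest levels in both peri-tumor groups were those of Slc51b and Abcc4, at most 1.25 FPKM in any library.

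Summed by role, the 4 uptake carriers held 31.1 ± 11.7% of the transporters' FPKM in TCM tumors, against 65.4 ± 1.38% in TCM peri-tumor tissue. The uptake share was 19.1 ± 7.63% in control tumors, against 68.1 ± 4.61% in control peri-tumor tissue (SD, n = 4). Every tumor library, from 13.1% to 42.9%, was below every peri-tumor library, from 62.1% to 71.7%. The canalicular exporters held 53.4 ± 10.9% in TCM tumors and 25.2 ± 0.562% in TCM peri-tumor tissue, and 59.99 ± 5.98% in control tumors and 22.9 ± 6.52% in control peri-tumor tissue. The basolateral exporters held 15.4 ± 0.942% in TCM tumors and 9.39 ± 1.26% in TCM peri-tumor tissue, and 20.9 ± 4.58% in control tumors and 9.01 ± 2.79% in control peri-tumor tissue. As absolute sums, uptake FPKM were 72.2 ± 36.6 in TCM tumors and 386 ± 21.4 in TCM peri-tumor tissue, and 34.0 ± 18.3 in control tumors and 290.5 ± 31.8 in control peri-tumor tissue. Shares of a sum are tied to each other, so a lower uptake share fixes a higher share of the rest.

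**Figure D3:**
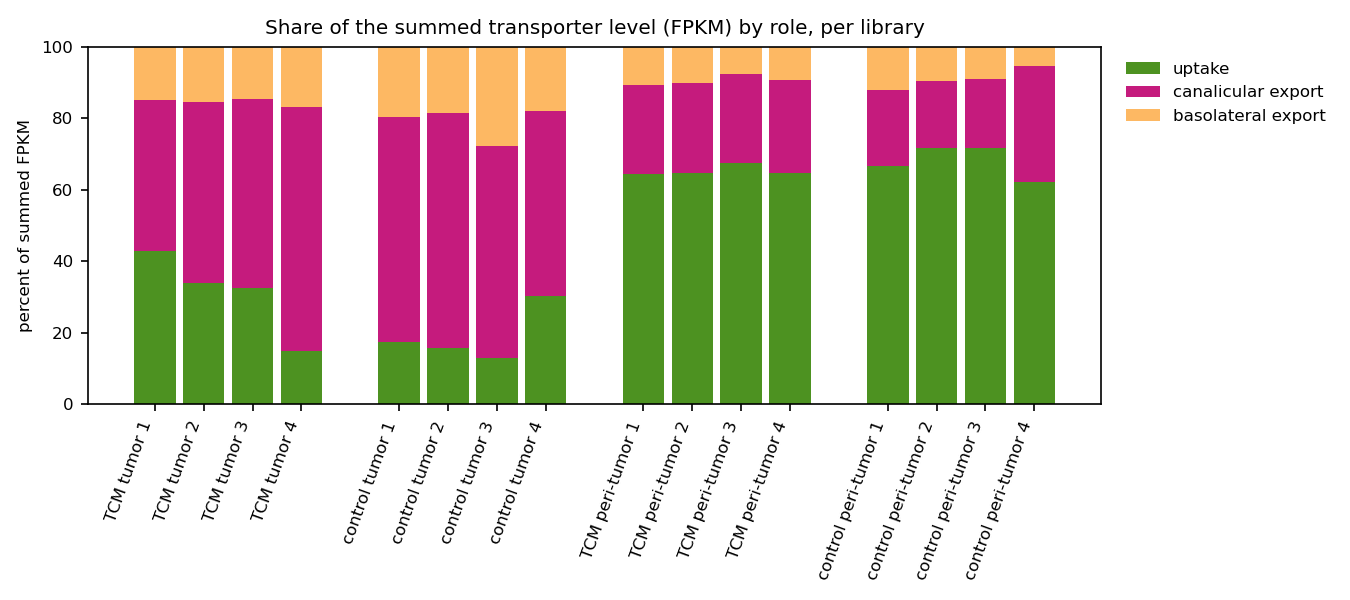
Stacked bars give the percent of the 10 transporters' summed FPKM (0 to 100) held by uptake, canalicular and basolateral carriers in each of the 16 libraries. Uptake carriers make up 62.1% to 71.7% in peri-tumor libraries and 13.1% to 42.9% in tumor libraries.

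The balance inside the canalicular set also differed by tissue. The FPKM ratio of Abcc2 to Abcb11 was 1.53 ± 0.518 in TCM tumors, against 0.707 ± 0.118 in TCM peri-tumor tissue. It was 4.12 ± 1.21 in control tumors, against 0.835 ± 0.279 in control peri-tumor tissue. The lowest control tumor, mouse 4 at 2.34, lay above the highest TCM tumor at 2.17. These ratios are descriptions and were not tested.

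Fewer of the transporters were called between treatments than between tissues. In peri-tumor liver edgeR called Abcb4 and Abcc2. In TCM against control peri-tumor tissue 2 transporters rose, 0 fell and 8 did not pass, where 14.1% of all tested genes were called (6.71% rose and 7.35% fell). The median log2 fold change of the 10 was 0.56, beside -0.0042 for all genes. Abcb4, at 231 ± 21.5 CPM in TCM and 133 ± 27.4 CPM in control peri-tumor tissue (SD, n = 4), had a log2 fold change of 0.80 ± 0.15 (SE; edgeR adjusted p = 0.00386), and its groups did not overlap. Abcc2, at 642 ± 74.7 CPM in TCM and 409.8 ± 21.3 CPM in control peri-tumor tissue, had 0.65 ± 0.18 (SE; edgeR adjusted p = 0.0255), with no overlap. The Abcc2 call was lost without TCM peri-tumor 3 or 4 or control peri-tumor 1, 2 or 3, with edgeR adjusted p of 0.0549 to 0.0659.

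Another 3 transporters had peri-tumor groups that did not overlap without passing the test, so that 5 of the 10 were apart, against 18.0% of all genes. They were Slco1a1 (1.20 ± 0.87 (SE; edgeR adjusted p = 0.388)), Slco1b2 (0.37 ± 0.41 (SE; edgeR adjusted p = 0.593)) and Abcc3 (0.63 ± 0.22 (SE; edgeR adjusted p = 0.069)), all with higher values in TCM libraries. Abcc3 was called without control peri-tumor 1 (edgeR adjusted p = 0.0465), and by limma-voom and DESeq2 (adjusted p = 0.0401 and 0.0307). Abcb11 had a log2 fold change of 0.70 ± 0.25 (SE; edgeR adjusted p = 0.0748). Control peri-tumor 4 alone stood at the level of the TCM libraries, and without it the value was 1.13 (edgeR adjusted p = 0.000535). With all libraries kept, limma-voom (0.999, adjusted p = 0.00148) and DESeq2 (0.72, adjusted p = 0.0339) also called Abcb11. Slc10a1 stood at 0.38 ± 0.26 (SE; edgeR adjusted p = 0.367), Slco1a4 at -0.48 ± 0.53 (SE; edgeR adjusted p = 0.589), Abcc4 at 0.50 ± 0.36 (SE; edgeR adjusted p = 0.393) and Slc51b at -0.02 ± 0.93 (SE; edgeR adjusted p = 0.993).

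In tumors, 1 transporter rose and 1 fell under the decoction, where 7.28% of all tested genes were called (4.55% rose and 2.72% fell). The median log2 fold change of the 10 was 0.55, beside 0.002 for all genes. Abcb11 rose, at 285 ± 23.02 CPM in TCM tumors and 124 ± 33.5 CPM in control tumors (SD, n = 4), with a log2 fold change of 1.21 ± 0.26 (SE; edgeR adjusted p = 0.0137). Abcc4 fell, at 9.21 ± 4.81 CPM in TCM tumors and 23.3 ± 6.62 CPM in control tumors, with -1.34 ± 0.36 (SE; edgeR adjusted p = 0.0344). These were the 2 genes of the set whose tumor groups did not overlap, against 15.9% of all genes. The Abcc4 call was lost in a fit of the tumor groups alone (edgeR adjusted p = 0.0705), and without TCM tumor 2 or 3 or control tumor 2 or 3, at 0.0716 to 0.102.

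The uptake carriers did not pass in edgeR in this comparison, and their calls changed with single libraries and with the method. With all libraries kept, limma-voom called Slc10a1 (adjusted p = 0.0488), Slco1a1 (0.0206) and Slco1b2 (0.0061). DESeq2 called Slc10a1 (adjusted p = 0.0359) and Slco1b2 (0.0167). Slc10a1 averaged 117 ± 47.97 CPM in TCM tumors and 67.9 ± 12.5 CPM in control tumors, a log2 fold change of 0.78 ± 0.27 (SE; edgeR adjusted p = 0.0851). Slco1b2 had 1.31 ± 0.42 (SE; edgeR adjusted p = 0.0689), Slco1a4 1.66 ± 0.59 (SE; edgeR adjusted p = 0.0958) and Slco1a1 1.77 ± 0.89 (SE; edgeR adjusted p = 0.233). TCM tumor 4 was the lowest TCM tumor for all 4 carriers, and without it Slc10a1 (1.04), Slco1a4 (2.03) and Slco1b2 (1.62) were called, at edgeR adjusted p of 0.00821, 0.0264 and 0.0193. Control tumor 4 was the highest control tumor for Slc10a1, Slco1a1 and Slco1b2, and without it Slco1a1 (3.59) and Slco1b2 (1.999) were called, at edgeR adjusted p of 0.0183 and 0.00539. The remaining genes were at 0.28 ± 0.15 (SE; edgeR adjusted p = 0.266) for Abcb4, -0.15 ± 0.18 (SE; edgeR adjusted p = 0.634) for Abcc2, 0.08 ± 0.22 (SE; edgeR adjusted p = 0.863) for Abcc3 and 0.32 ± 0.71 (SE; edgeR adjusted p = 0.824) for Slc51b.

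Whether the tumor effect itself differed between treatments was tested as a difference of differences. None of the 10 was called by edgeR, where 1.11% of all tested genes were called, and 4 had an unadjusted p below 0.05. DESeq2 and limma-voom each called 2 of the 10, where they called 806 and 603 of all 14865 tested genes. Abcc4 had the value farthest below 0, -1.83 ± 0.51 (SE; edgeR adjusted p = 0.0807), and was called with the mouse as a block (-2.01, edgeR adjusted p = 0.0449). Abcc2 had -0.80 ± 0.25 (SE; edgeR adjusted p = 0.112), Abcb4 -0.52 ± 0.21 (SE; edgeR adjusted p = 0.211) and Slco1a4 2.14 ± 0.79 (SE; edgeR adjusted p = 0.174). The other 6 lay between -0.55 for Abcc3 and 0.94 for Slco1b2. The tumor and treatment comparisons share libraries with each other, so their values are given side by side and not as independent results.

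Control mice differed in the balance of Slco1a1 and Slco1a4. The FPKM ratio of Slco1a4 to Slco1a1 was 0.0516 to 0.108 in TCM peri-tumor tissue and 0.502, 3.06, 0.105 and 0.0524 in control peri-tumor tissue of mice 1 to 4. In tumors it was 0.0801 to 0.251 in TCM mice and 0.669, 2.95, 0.227 and 0.067 in control mice 1 to 4, so the order of control mice by this ratio was alike in both tissues. The level of Slco1a4 itself was not ordered alike, with mouse 2 highest in peri-tumor tissue and mouse 1 highest in tumors. Cux2, a transcription factor known as female-biased in mouse liver, had 0.661, 0.405, 0.151 and 0.512 CPM in TCM peri-tumor tissue and 65.9, 72.6, 3.56 and 0.0698 CPM in control peri-tumor tissue. Control mice 1 and 2, with Cux2 at 65.9 and 72.6 CPM, had the lowest Slco1a1 and the highest Slco1a4 of the 4 control peri-tumor libraries. Both had the male pattern of Xist and Ddx3y given above. Bcl6, known as a male-biased repressor, had 9.06, 18.7, 11.3 and 34.03 CPM in TCM peri-tumor tissue and 4.01, 6.53, 54.1 and 74.01 CPM in control peri-tumor tissue, lowest in those same control mice. Their part in the levels of the carriers was not tested.

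**Figure D4:**
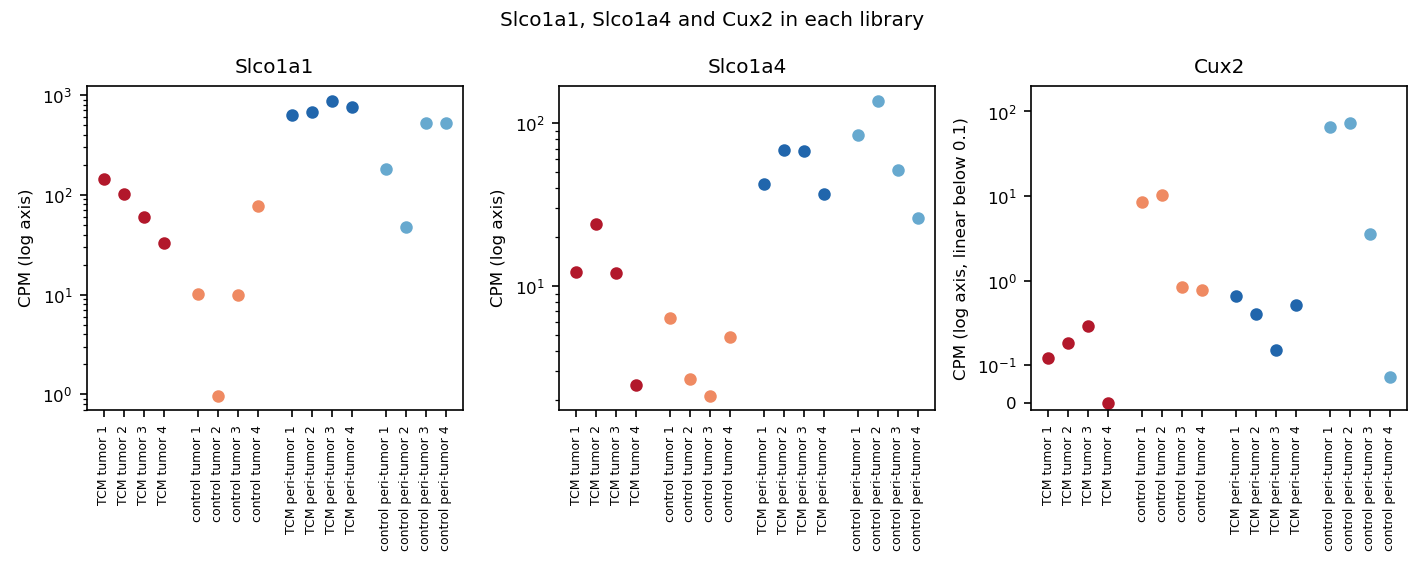
Slco1a1, Slco1a4 and Cux2 in each of the 16 libraries, as CPM on log axes (the Cux2 axis is linear below 0.1), with the 4 groups in separate blocks. Control peri-tumor 1 and 2 combine low Slco1a1 with high Slco1a4 and Cux2.

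Markers of other cells moved with tissue and treatment as well, and their part in the transporter results was not tested. Of all tested genes, 32.9% were called between tissues in TCM mice and 43.2% in control mice. Under the decoction 14.1% of all tested genes were called in peri-tumor tissue and 7.28% in tumors. Of 16 hepatocyte markers, 4 rose and 7 fell in tumor against peri-tumor tissue of TCM mice, and 5 rose and 7 fell in control mice; under the decoction 0 were called by edgeR in peri-tumor tissue (3 at an unadjusted p below 0.05) and 1 rose in tumors. Of 9 tested cholangiocyte markers of 13, 3 rose in tumors of TCM mice, and 4 rose and 1 fell in control mice. Their summed level was 619 to 1406 CPM in TCM tumors, 1087 to 2436 in control tumors, 154 to 278 in TCM peri-tumor and 149 to 302 in control peri-tumor libraries. In tumors most of it was Spp1, at 386 to 1214 CPM in TCM tumors and 880 to 2205 CPM in control tumors, and in peri-tumor libraries Spp1 had 20.6 to 73.2 CPM, while the duct keratins Krt19 and Krt7 stayed at or below 1.75 and 0.968 CPM in every library.

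Markers of Kupffer cells, the resident phagocytes of the sinusoid, and of macrophages more widely formed 1 list. Of its 10 markers, 6 fell under the decoction in peri-tumor tissue and 3 in tumors. They summed to 62.6 to 254 CPM in TCM tumors, 204 to 279 in control tumors, 269.8 to 327 in TCM peri-tumor and 509 to 1171 in control peri-tumor libraries. In tumor against peri-tumor tissue 1 rose and 2 fell in TCM mice, and 2 rose and 7 fell in control mice. Among endothelial markers 4 of 10 rose and 2 fell in TCM tumors, and 3 rose and 2 fell in control tumors; 1 of 10 fell under the decoction in each tissue. Stellate and fibroblast markers rose for 4 of 10 and fell for 2 in TCM tumors, rose for 4 and fell for 1 in control tumors, and 0 were called by edgeR under the decoction (0 in peri-tumor tissue and 2 in tumors at an unadjusted p below 0.05). Summed levels were 348 to 406 CPM in TCM tumor, 323 to 373 in control tumor, 241 to 334 in TCM peri-tumor and 265 to 461 in control peri-tumor libraries for the endothelial list. For the stellate and fibroblast list they were 273 to 388, 322 to 595, 211 to 262 and 136 to 263 CPM in the same order of groups. Of 10 leukocyte markers edgeR called 0 in TCM tumors (2 at an unadjusted p below 0.05) and 1 rose in control tumors, while under the decoction 1 fell in tumors and 0 were called in peri-tumor tissue (1 unadjusted). They summed to 10.7 to 38.2 CPM in TCM tumor, 30.9 to 113 in control tumor, 12.5 to 15.3 in TCM peri-tumor and 17.2 to 35.3 in control peri-tumor libraries. Erythroid markers summed to 247 to 788 CPM over all 16 libraries. Of 5 tested 1 fell in TCM tumors and 3 in control tumors, while under the decoction 1 rose and 1 fell in peri-tumor tissue and 1 rose in tumors.

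Genes around the transporters were read from 6 lists. Most genes of bile acid synthesis and conjugation fell in tumors: of 21 genes, 17 fell and 2 rose in TCM tumors (median log2 fold change -1.26), and 17 fell and 3 rose in control tumors (median -1.63). The called shares were 90.5% and 95.2%, beside 32.9% and 43.2% of all genes. Cyp27a1, which opens the acidic pathway of synthesis, averaged 84.1 ± 24.4 CPM in TCM tumors and 283 ± 24.7 CPM in TCM peri-tumor tissue, and 47.5 ± 9.40 CPM in control tumors and 283 ± 38.2 CPM in control peri-tumor tissue. Its log2 fold changes were -1.75 ± 0.20 in TCM mice and -2.58 ± 0.20 in control mice (edgeR adjusted p = 1.11e-05 and 1.98e-07). Baat, which conjugates bile acids to taurine or glycine, had log2 fold changes of -1.22 ± 0.15 in TCM and -1.71 ± 0.16 in control mice (edgeR adjusted p = 2.68e-05 and 6.46e-07).

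Under the decoction 5 of the 21 rose and 2 fell in peri-tumor tissue (33.3% called, beside 14.1% of all genes). In tumors 5 rose and 0 fell (23.8% called, beside 7.28% of all genes). Cyp8b1, the hydroxylase needed for cholic acid, was at 119 ± 63.4 CPM in TCM and 14.6 ± 4.39 CPM in control peri-tumor tissue, a log2 fold change of 3.03 ± 0.45 (edgeR adjusted p = 0.00101). In tumors it was at 19.6 ± 12.5 CPM with TCM and 2.19 ± 0.635 CPM in control mice, 3.16 ± 0.49 (edgeR adjusted p = 0.00289). Cyp2c70, the enzyme that makes muricholic acids in mice, was at 365 ± 90.7 CPM in TCM and 748 ± 91.8 CPM in control peri-tumor tissue, -1.04 ± 0.21 (edgeR adjusted p = 0.00571). Amacr, a peroxisomal racemase of side chain shortening, rose by 0.72 ± 0.12 on the log2 scale in TCM against control tumors (edgeR adjusted p = 0.00368).

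Of 27 tested regulators of transporter genes, 7 fell and 1 rose in tumors of TCM mice, 29.6% called beside 32.9% of all genes. In control mice 13 fell and 2 rose, 55.6% called beside 43.2% of all genes. Nr1i3 (CAR), a sensor of foreign compounds, had log2 fold changes of -1.72 ± 0.32 in TCM and -2.89 ± 0.33 in control mice (edgeR adjusted p = 0.000682 and 5.02e-06). Nr1h4 (FXR), the bile acid receptor, had -0.96 ± 0.20 in TCM and -1.61 ± 0.20 in control mice (edgeR adjusted p = 0.00151 and 1.28e-05). In TCM against control peri-tumor tissue 1 rose and 5 fell, 22.2% called beside 14.1% of all genes. Among the falls were Nr1i3 (-1.45 ± 0.31, edgeR adjusted p = 0.00747, and -1.73 without control mouse 4) and Cux2 (-6.31 ± 1.41, edgeR adjusted p = 0.00984). Most of the control level of Cux2 came from mice 1 and 2 (65.9 and 72.6 CPM). Control mice 3 and 4 had 3.56 and 0.0698 CPM, and the TCM libraries had 0.151 to 0.661 CPM, so the groups overlapped. In tumors 2 rose and 0 fell under the decoction, 7.41% called beside 7.28% of all genes. Nr0b2 (SHP), a repressor that FXR switches on, was at 50.7, 26.1, 49.7 and 29.6 CPM in TCM tumors and 10.02, 12.7, 16.7 and 17.5 CPM in control tumors, 1.45 ± 0.22 (edgeR adjusted p = 0.00223). Fgfr4, the receptor for the gut signal that restrains bile acid synthesis, rose by 0.67 ± 0.14 on the log2 scale (edgeR adjusted p = 0.0137).

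Other organic anion and bile acid transporters (13 tested of 21) did not share 1 direction. In TCM tumors 1 rose and 4 fell (38.5% called), and in control tumors 3 rose and 3 fell (46.2%), shares near those of all genes. Abcc5 (MRP5) rose in both, at 25.5 ± 8.31 CPM in TCM tumors and 3.41 ± 0.135 CPM in TCM peri-tumor tissue, and 51.1 ± 7.10 CPM in control tumors and 5.29 ± 1.07 CPM in control peri-tumor tissue. Its log2 fold changes were 2.90 ± 0.23 in TCM and 3.27 ± 0.22 in control mice (edgeR adjusted p = 4.74e-07 and 6.04e-08). Slco2b1, a further OATP, had -1.69 ± 0.14 in TCM and -2.61 ± 0.15 in control mice (edgeR adjusted p = 8.64e-07 and 2.55e-08), and the difference of 0.92 ± 0.20 was called (edgeR adjusted p = 0.0399). It was the 1 called of the 13 in that test. Slc22a7 (OAT2) had -2.68 ± 0.31 in TCM and -3.84 ± 0.34 in control mice (edgeR adjusted p = 1.44e-05 and 5.75e-07).

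Under the decoction 1 of these 13 rose in peri-tumor tissue (7.69% called, beside 14.1% of all genes), Abcg2 (BCRP), a canalicular pump of sulfated conjugates, by 1.10 ± 0.16 on the log2 scale (edgeR adjusted p = 0.000961). It had 115, 96.8, 133 and 107 CPM in TCM peri-tumor tissue and 44.6, 38.8, 64.9 and 62.4 CPM in control peri-tumor tissue, with no overlap. In tumors 3 rose and 2 fell, 38.5% called beside 7.28% of all genes. Abcc5 fell by 1.002 ± 0.20 and the prostaglandin carrier Slco2a1 fell by 0.78 ± 0.16 on the log2 scale, while Abcc6 (0.71 ± 0.15) and Slco2b1 (0.63 ± 0.14) rose (edgeR adjusted p of 0.011 to 0.017).

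Other canalicular pumps and lipid exporters (12 genes) gave 6 rises and 2 falls in TCM tumors (66.7% called), and 4 rises and 3 falls in control tumors (58.3%), beside 32.9% and 43.2% of all genes. Abcb1a (MDR1), a drug pump, rose by 2.83 ± 0.29 in TCM and 2.16 ± 0.29 in control mice on the log2 scale (edgeR adjusted p = 4.98e-06 and 2.17e-05). Of its 50-base words 17.0% also occur in any other gene, and Abcb1b shared most. Npc1l1, a cholesterol importer held in this list, had 4.69 ± 1.82 CPM in TCM tumors and 0 counts in all TCM peri-tumor libraries. Its tumor level was at least 91.9-fold higher when 3 counts over the group are taken as the floor. Control tumors had 3.85 ± 1.63 CPM of it, against 4 counts in all over the 4 control peri-tumor libraries. Under the decoction 1 of the 12 fell in peri-tumor tissue (8.33% called, beside 14.1% of all genes), Npc2 (-0.45 ± 0.11, edgeR adjusted p = 0.0134). In tumors 1 rose (8.33% called, beside 7.28% of all genes), Abcg8 (0.82 ± 0.21, edgeR adjusted p = 0.0317), which encodes a part of the sterol pump.

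Scaffold and trafficking genes of the canaliculus (22 genes) gave 5 rises and 2 falls in TCM tumors (31.8% called, beside 32.9% of all genes), and 7 rises and 4 falls in control tumors (11 of 22, beside 43.2%), shares near those of all genes. Dpp4, a protease of the canalicular membrane, fell, with log2 fold changes of -1.49 ± 0.15 in TCM and -2.33 ± 0.16 in control mice (edgeR adjusted p = 4.91e-06 and 6.04e-08). In peri-tumor tissue 6 rose and 2 fell under the decoction, 36.4% called beside 14.1% of all genes. Cldn1 was at 1.20 ± 0.33 (edgeR adjusted p = 0.0244, and 1.69 without control mouse 4) and Ezr, an actin linker, at -1.22 ± 0.32 (edgeR adjusted p = 0.0211). In tumors 2 rose and 0 fell (9.09% called, beside 7.28% of all genes), Dpp4 (0.77 ± 0.15) and Cldn3 (0.40 ± 0.11), at edgeR adjusted p of 0.0103 and 0.0364.

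Enzymes that make or handle the anions these carriers move (23 genes) gave 2 rises and 14 falls in TCM tumors (69.6% called), and 6 rises and 12 falls in control tumors (78.3%), beside 32.9% and 43.2% of all genes. In peri-tumor tissue 7 rose and 1 fell under the decoction, 34.8% called beside 14.1% of all genes. Cyp3a11, a drug-oxidising P450, had 6416, 4081, 6951 and 4255 CPM in TCM and 1499, 984, 1512 and 890.3 CPM in control peri-tumor tissue, a log2 fold change of 2.15 ± 0.29 (edgeR adjusted p = 0.000564). The P450 Cyp2b10 had 12.1, 9.51, 13.1 and 8.12 CPM in TCM and 0.509, 0, 0.827 and 0.419 CPM in control peri-tumor tissue, 4.59 ± 0.54 (edgeR adjusted p = 0.000195). Gclc, the catalytic subunit of glutathione synthesis, rose by 1.503 ± 0.24 on the log2 scale (edgeR adjusted p = 0.00149). In tumors 3 rose and 0 fell, 13.0% called beside 7.28% of all genes. They were Cyp3a11 (2.43 ± 0.29, edgeR adjusted p = 0.000611), Gclm (0.99 ± 0.22, edgeR adjusted p = 0.017) and Cyp2b10 (2.82 ± 0.77, edgeR adjusted p = 0.0381, lost without control mouse 4 at 0.0648). Cyp2b10 was near the floor in tumors, with 45 counts over all TCM tumors and 6 over all control tumors. The tumor effect on Gclc differed between treatments by -1.65 ± 0.33 (edgeR adjusted p = 0.0297), the 1 called of the 23. The named Gstm3 rise in peri-tumor tissue (2.34 ± 0.40, edgeR adjusted p = 0.00226) is uncertain, since 28.8% of its words occur in any other gene, with Gstm1 sharing most.

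**Figure D5:**
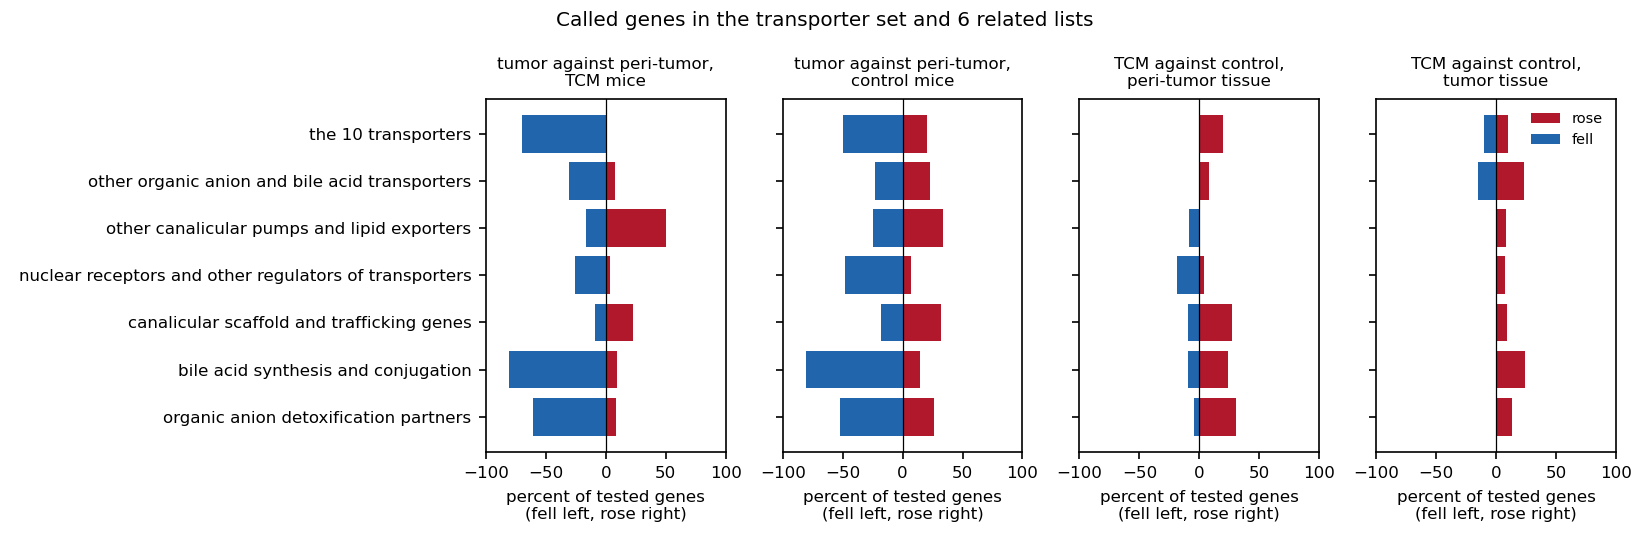
For the 10 transporters and 6 related lists, bars give the percent of tested genes that rose (right of 0) or fell (left of 0) at an adjusted p below 0.05 in edgeR, in 4 comparisons. In tumors of both treatments falls outnumber rises among the transporters, bile acid synthesis, the regulators and the detoxification partners. Rises outnumber falls among the scaffold genes and in the list of other canalicular pumps and lipid exporters. That list, which includes the importer Npc1l1, had 6 against 2 in TCM mice and 4 against 3 in control mice.

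Each transporter was also set beside the genes whose profile over the 16 libraries was most like its own, by the root mean square (rms) difference of centred log2 CPM among 9509 genes averaging 5 CPM or more. Slc10a1 lay nearest to Cyp27a1 (0.249), the enzyme described above, and then to the lipase gene Lipc (0.286). Slco1b2 lay nearest to Rgn (0.229), Cyp1a2 (0.307) and Scnn1a (0.31), against an rms of its own profile of 1.85. Slco1a1, with an rms of its own profile of 2.67, lay nearest to Ces3a (0.59), followed by Mup8 (0.645) and Mup22 (0.649), major urinary protein genes whose near-identical copies make counts uncertain. Slco1a4 lay nearest to Hpd (0.46) and Pon1 (0.496). Abcb11 lay nearest to Agxt (0.225), Abcb4 to Lonp2 (0.174), Abcc2 to Zyg11b (0.198) and Abcc3 to Pgrmc1 (0.2). These 4 distances are small partly because the genes varied little, with an own rms of 0.863, 0.446, 0.403 and 0.489. Abcc4 (Phldb2, 0.474) and Slc51b (Etl4, 0.571) had loose matches against an own rms of 0.898 and 1.07, and for Slc51b counting error adds to the distance. Within the set, Abcb4 and Abcc3 were the closest pair at 0.388, and Slco1a1 and Abcc4 the farthest at 3.33. These distances describe the same 16 libraries, which share tissue, treatment and depth.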

How the data were processed

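RNA (mirVana kit) of both tissues from 8 mice was sequenced with a stranded mRNA kit, per the labels' protocols. The authors deposited raw read counts per gene, whole numbers with no scaling. The authors also deposited FPKM values, equal to counts divided by library total and a gene length. Builds mm9 and mm10 are listed in the submitters' processing notes with no role, and no aligner or counter. Positions are from GENCODE M21 (GRCm38) and promoter windows from RefSeq (GRCm38.p6), matched by symbol.

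All 16 libraries entered 1 quasi-likelihood fit (R 4.3.3, edgeR 4.0.16, TMM factors) with a mean for each group, leaving 12 residual degrees of freedom. The filterByExpr filter (count minimum 10) left 14865 of 54838 genes, and p-values were adjusted by Benjamini-Hochberg over these in each of 5 comparisons. A gene was called below 0.05. SE was taken as the fold change (log2) divided by the root of F. The fit was tested on simulated counts with known fold changes. Rows with no symbol held at most 0.0171% of a library. No 2 libraries of a group agreed within sampling noise.

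Shared 50-base words were those of a gene's longest transcript that also occur in any transcript of any other gene. The 10 transporters were named in all comparisons, and list examples by lowest p (up to 4 per list, mean of at least 1 CPM). The transporters, lists and rules were chosen with earlier results of these data known. A few genes that the naming rule reaches are not reported here.

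Animal codes in the labels tie the 2 tissues of a mouse, so the mouse pairs them. Deviations of its 2 libraries from their group means correlated at 0.24, 0.043, 0.091 and 0.11 in TCM mice and at 0.15, 0.12, 0.063 and 0.23 in control mice. TCM and control mice share only a number. Alternatives were RLE factors, no filter, a 1 CPM filter (4 libraries), fits of the compared groups alone, blocks, limma-voom 3.58.1, DESeq2 1.42.0, each library left out and control mouse 4 left out.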

Additional observations from a re-analysis of the deposited data

Results flagged for a closer look

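Among the 40 sets of 4 libraries examined (10 transporters in 4 groups), a single library stood far from the other 3 in 2 sets, and chance flags about 1 in 20. Both came from control mouse 4. Slco1a1 had 77.4 CPM in control tumor 4, against 0.970 to 10.1 CPM in the other control tumors. Abcb11 had 617 CPM in control peri-tumor 4, against 239 to 288 CPM in the other control peri-tumor libraries. Without both libraries of that mouse the tumor effect on Slco1a1 in control mice was -5.18 on the log2 scale.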

How the results depend on the processing

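Between tissues, 7 transporters were called in TCM mice and 7 in control mice, and every setting run gave 6 to 8 in TCM mice and 7 to 9 in control mice. Between treatments the counts were 2 in peri-tumor tissue and 2 in tumors. In peri-tumor tissue limma-voom called 4 and DESeq2 4, and leaving out 1 library gave 1 to 3. Of all 14865 tested genes limma-voom called 3349 there and DESeq2 2811, against 2091 in edgeR. Leaving out 1 library gave 1101 to 3228 over all genes. In tumors the fit of the tumor groups alone called 1, limma-voom 5 and DESeq2 4. The fit without control mouse 4 called 4, and leaving out 1 library gave 1 to 5. Over all 14865 genes edgeR called 1082 in tumors, limma-voom 2193 and DESeq2 1805. The tumor groups alone gave 786 of 14193 genes, and the fit without control mouse 4 gave 1877 of 15027. Leaving out 1 library gave 404 to 1524 over all genes. The difference of tumor effects, 0 calls in edgeR, had 2 in limma-voom and 2 in DESeq2, and leaving out 1 library gave 0. Of all 14865 genes limma-voom called 603 in this difference and DESeq2 806, against 165 in edgeR. RLE factors, no filter and the filter of 1 CPM in 4 libraries changed none of these transporter counts.

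With the mouse as a block, which pairs the tissues, 1 transporter was called in the difference of tumor effects, Abcc4 at -2.01 (edgeR adjusted p = 0.0449). That fit called 107 of all 14865 genes in the difference. The mouse block moved Slco1a1 in control mice to -4.44 and changed no other transporter call. A block on the replicate number, which TCM and control mice share without a stated pairing, gave 3 calls in peri-tumor tissue, with Abcb11 added at 0.80 (edgeR adjusted p = 0.044), and 2 in tumors. Over all 14865 genes the number block called 2046 in peri-tumor tissue and 1088 in tumors. Same-numbered libraries of the 2 treatments correlated at -0.1 to -0.0043 in tumors and 0.0066 to 0.11 in peri-tumor tissue.

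Signs turned for values that did not pass the test. For tumor against peri-tumor tissue of TCM mice, Abcc2 was -0.001 in limma-voom and -0.0217 to 0.2293 without 1 library, and Abcc4 was -0.0017 with the mouse block, -0.12 in limma-voom and -0.11 to 0.41 without 1 library. For TCM against control, Slc51b in peri-tumor tissue was 0.12 with the number block, 0.12 in limma-voom, 1.05 without control mouse 4 and -1.01 to 1.06 without 1 library, and Abcc3 in tumors was -0.0312 to 0.27. The Slc51b difference was -0.27 without control mouse 4 and -0.74 to 1.33 without 1 library. The cause was not tested. Of 800 values with 1 library left out, 768 kept direction and call, 11 turned sign, 11 gained a call and 10 lost it. Under the other settings the numbers were 353, 7, 21 and 1. For called list genes named by rule, leaving out control mouse 4 was chosen after seeing the data; 83 kept their call and 1 lost it, Cyp2b10 in tumors. Without that mouse the calls under the decoction in tumors were 10 for bile acid synthesis (5 with it), 4 for regulators (2), 3 for other canalicular pumps (1), 3 for hepatocyte markers (1) and 2 for erythroid markers (1). Calls over all genes rose too, to 1877 of 15027 tested, against 1082 of 14865 with the mouse. In peri-tumor tissue the list calls were 2 for hepatocyte (0), 2 for stellate (0) and 3 for leukocyte markers (0), and 2 each for other anion transporters and canalicular pumps (1 each). There, 3434 of all 15027 tested genes were called, against 2091 of 14865 with the mouse. Depth limits Slc51b, at 0 to 19 counts per library.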

Other observations

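Cyp7a1, the rate-limiting enzyme of the classic pathway of bile acid synthesis, varied most among control mice. It had 22.01, 27.7, 20.7 and 22.00 CPM in TCM peri-tumor tissue, against 112, 208, 82.1 and 13.4 CPM in control peri-tumor tissue, where mouse 4 lay below every TCM library. Its log2 fold change between these groups was -2.17 ± 0.59 (SE; edgeR adjusted p = 0.0257), and -2.54 without control mouse 4. Tumors held 2.87 to 7.51 CPM in TCM mice and 1.35 to 7.10 CPM in control mice.

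Mouse Hras averaged 36.5 ± 5.60 CPM in TCM tumors and 29.8 ± 2.32 CPM in TCM peri-tumor tissue (SD, n = 4). It averaged 39.6 ± 5.90 CPM in control tumors and 38.2 ± 3.73 CPM in control peri-tumor tissue. None of these differences was called (edgeR adjusted p of 0.0735 to 0.777). Gene counts do not tell the transgene's transcript from that of the endogenous gene.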
